A study of Mus musculus with 12 samples.

Results

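Heat shock proteins and chaperonins are the protein-folding machinery of the cell, and the 84 mouse genes described here encode its HSP90, HSP70, HSP110, HSP60, HSP10, small heat shock and J-domain proteins and the subunits of the cytosolic chaperonin CCT. They were chosen by symbol alone, as protein-coding genes starting with Hspa, Hspb, Hspd, Hspe, Hsph, Hsp90, Dnaja, Dnajb, Dnajc or Cct and a digit, plus Tcp1, out of 21900 protein-coding genes. The rule uses no measured value. The study profiled H3K79me2, the dimethyl mark placed on histone H3 by the methyltransferase DOT1L, by ChIP-seq in CD8 T cells from male mice on day 8 after activation through CD3 and CD28. Cells had received EPZ-5676 (the EPZ group), SGC-0946 (the SGC group) or 0.1% DMSO as vehicle (the DMSO group), renewed every other day. Both compounds are DOT1L inhibitors that compete with its methyl donor, and their labelled dose of 10 mM is doubtful in its unit, since cells are usually given micromolar amounts. All groups shared 1 genotype, wild type for CreERT2 and for the floxed Dot1l allele and heterozygous for the OT-I T cell receptor transgene, a transgene that encodes a T cell receptor against an ovalbumin peptide. Each group had 2 immunoprecipitates and 2 inputs, with yeast chromatin added as a reference.

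The values come from 1 deposited list of broad peaks per group, with 4443 EPZ, 55 SGC and 12578 DMSO peaks. The lists span 18.1, 0.138 and 68.4 Mb. There is no value per replicate, so the spread between replicates is not known, no test between groups could be made, and read depth is unknown from the lists. Here a marked gene is one whose annotated interval on mm10 (GRCm38) shares 1 base or more with a peak, and a gene without a peak is one where none was called. Fold enrichment is the authors' ratio of a peak over background, averaged over the peak. It ranks peaks within a list and is not a measure of change between lists. In these bulk cultures fewer cells with the mark and less mark per cell cannot be told apart. The CD8 markers Cd8a and Cd8b1 and the T cell markers Cd3d, Cd3e and Cd3g were marked in 5 of 5 cases in EPZ and in DMSO. Cd3d and Cd3g had the same highest value in each of these lists. In SGC 0 of 5 were marked, so that list does not speak to cell type. Markers of CD4 T, myeloid and NK cells and of fibroblasts and epithelium had no peak in any list, and of 5 B cell markers Cd79a alone had one, with 0.254 kb under a DMSO peak of 7.06-fold shared with its neighbour Arhgef1.

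Chaperones bind unfolded or partly folded proteins and keep them from aggregating while they fold. HSP70 proteins do so in cycles of ATP hydrolysis, which J-domain proteins start and nucleotide exchange factors reset. HSP90 completes the folding of kinases and receptors, and the chaperonins fold proteins inside a closed chamber. Heat shock factor 1 (HSF1) induces many of these genes by binding inverted GAA repeats, the heat shock element, and the unfolded protein response of the endoplasmic reticulum (ER) acts through the ER stress element. H3K79me2 lies over the first part of transcribed genes, downstream of their start.

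The promoter windows of 6 members are shown because they hold these elements at members that were marked in both lists, in DMSO alone or in neither. Each runs from 250 bases before to 50 bases after a RefSeq gene start on GRCm38.p6 and is written in the direction of transcription. Capitals mark the heat shock element (TTC, any 2 bases, then GAANNTTC) in Hspe1 and Hsph1, its single inverted repeat GAANNTTC in Hspa1a, and the ER stress element (CCAAT, any 9 bases, then CCACG) in Hspa5, Hsp90b1 and Dnajc3, each searched on both strands. The single repeat is contained in the heat shock element, and the ER stress element contains a CCAAT box.
Hspe1, chr1:55087898-55088197, plus strand: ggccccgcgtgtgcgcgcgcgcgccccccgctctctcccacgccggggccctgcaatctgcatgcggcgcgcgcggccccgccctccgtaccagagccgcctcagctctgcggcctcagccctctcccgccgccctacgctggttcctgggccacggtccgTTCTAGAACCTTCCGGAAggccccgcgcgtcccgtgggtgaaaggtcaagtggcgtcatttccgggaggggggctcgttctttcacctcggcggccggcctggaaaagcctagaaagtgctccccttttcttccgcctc
Hsph1, chr5:149636287-149636586, minus strand: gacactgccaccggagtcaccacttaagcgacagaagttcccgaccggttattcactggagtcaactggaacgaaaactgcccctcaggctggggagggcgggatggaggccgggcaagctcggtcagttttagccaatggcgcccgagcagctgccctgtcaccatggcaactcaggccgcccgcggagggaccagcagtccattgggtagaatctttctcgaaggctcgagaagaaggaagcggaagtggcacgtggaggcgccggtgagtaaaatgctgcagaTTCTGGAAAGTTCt
Hspa1a, chr17:34972107-34972406, minus strand: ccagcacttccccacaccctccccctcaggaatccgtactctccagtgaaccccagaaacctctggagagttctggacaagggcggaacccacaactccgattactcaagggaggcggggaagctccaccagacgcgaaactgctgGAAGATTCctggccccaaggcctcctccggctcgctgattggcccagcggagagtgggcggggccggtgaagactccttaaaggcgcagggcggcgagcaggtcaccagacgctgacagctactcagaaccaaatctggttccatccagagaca
Hspa5, chr2:34771840-34772139, plus strand: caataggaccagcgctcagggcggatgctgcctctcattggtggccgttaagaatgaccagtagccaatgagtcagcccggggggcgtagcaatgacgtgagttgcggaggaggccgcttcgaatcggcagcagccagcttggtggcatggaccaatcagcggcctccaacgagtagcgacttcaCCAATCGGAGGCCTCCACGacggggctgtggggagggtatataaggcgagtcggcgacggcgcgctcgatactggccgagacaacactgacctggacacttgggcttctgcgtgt
Hsp90b1, chr10:86705395-86705694, minus strand: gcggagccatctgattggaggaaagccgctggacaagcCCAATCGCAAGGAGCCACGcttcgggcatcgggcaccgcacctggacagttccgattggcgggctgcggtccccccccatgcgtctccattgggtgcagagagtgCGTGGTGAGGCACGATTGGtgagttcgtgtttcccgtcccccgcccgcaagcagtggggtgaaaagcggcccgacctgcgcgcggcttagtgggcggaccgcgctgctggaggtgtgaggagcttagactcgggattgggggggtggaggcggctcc
Dnajc3, chr14:118937682-118937981, plus strand: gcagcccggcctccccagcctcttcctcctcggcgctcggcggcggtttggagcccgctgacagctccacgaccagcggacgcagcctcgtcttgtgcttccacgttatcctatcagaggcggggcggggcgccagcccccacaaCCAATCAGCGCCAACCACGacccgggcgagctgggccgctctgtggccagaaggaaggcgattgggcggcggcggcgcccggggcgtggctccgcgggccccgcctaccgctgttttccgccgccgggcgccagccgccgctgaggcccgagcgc

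In Hspe1 a pair of overlapping heat shock elements began 89 and 84 bases before the start, and all 300 bases of its window lay under a peak in EPZ and in DMSO. In Hspa5, Hsp90b1 and Dnajc3 the EPZ peaks covered 63, 40 and 0 bases of the window, and the DMSO peaks covered 300 bases of each. No peak touched the windows of Hsph1 or Hspa1a in any list. For the counts that follow, only the window of the most upstream start of each gene was searched. The heat shock element was in 3 of 69 members with a RefSeq window (4.35%), which were Hspe1, Hsph1 and Dnajb6. It was in 0.48% of the windows of 17492 protein-coding genes. Another RefSeq window of Hspd1, not counted here, overlaps the Hspe1 window and held 2 matches. The ER stress element was in 3 of 69 members (4.35%), the ones shown, and in 0.16% of all windows. The single repeat GAANNTTC was in 12 of 69 members (17.4%) and 7.35% of all windows. Of these 12 members 8 had no DMSO peak, as had 937 of the 1286 genes whose windows hold it. With or without the repeat, 34 of 69 members and 11343 of 17492 genes with a window had no DMSO peak. A link between the repeat and the absence of a peak was not tested. These matches are descriptions of letters in the windows.

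In EPZ 32 of the 84 members were marked (38.1%, exact 95% interval 27.7 to 49.3), where 15.9% of all protein-coding genes were. In SGC 0 of 84 were marked (interval up to 4.30%), where 0.142% of all genes were, so a count of 0 does not set the members apart. The nearest SGC peak to any member lay 167 kb away, from Dnajc25. In DMSO 44 of 84 were marked (52.4%, interval 41.2 to 63.4), where 34.5% of all genes were. Thus at the same labelled dose and day 32 members had an EPZ peak and 0 an SGC peak, a difference between 1 list each with no replicate check. Every EPZ-marked member was also DMSO-marked, as were all 3486 EPZ-marked genes. Of the 44 DMSO-marked members 32 kept a called peak in EPZ (72.7%, interval 57.2 to 85.0), beside 46.1% of all DMSO-marked genes. Intervals cover the counting of genes only. By family, all HSP90, HSP60, HSP10 and somatic CCT genes had peaks in both lists. Of 10 small heat shock genes 0 had an EPZ peak (interval up to 30.8%) and 2 a DMSO peak (interval 2.52 to 55.6%), and these intervals hold the shares of all genes.

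**Figure D1:**
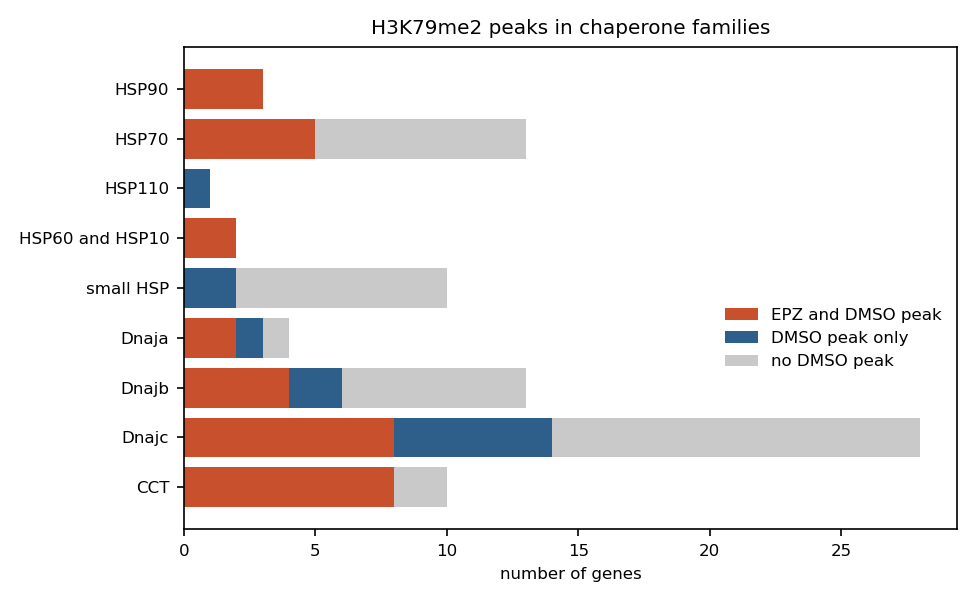
Number of genes per chaperone family (x axis) with an EPZ and a DMSO peak, with a DMSO peak only, or with no DMSO peak. HSP90 (3 of 3), HSP60 and HSP10 (2 of 2) and CCT (8 of 10) were the families in which every DMSO-marked gene and most genes in all had an EPZ peak, whereas small HSP genes had 0 of 10.

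All 3 HSP90 genes were marked in EPZ and DMSO. Hsp90ab1, the constitutive cytosolic form, lies on chromosome 17 from 45567778 to 45573261, and 2.18 kb of it lay under a peak in EPZ against 4.43 kb in DMSO. The highest peak there had a fold enrichment of 6.20 in the EPZ list and 7.55 in the DMSO list. Hsp90aa1, the stress-inducible cytosolic form, had 1.53 kb under an EPZ peak of 5.78-fold, against 3.29 kb under a DMSO peak of 6.94-fold. Hsp90b1, the form of the ER lumen that folds integrins and Toll-like receptors, had 5.34 kb at 6.30-fold in EPZ against 8.43 kb at 6.58-fold in DMSO. The 3 DMSO peaks stood at percentiles 90.1 to 94.0 of their list, so these genes lay close together and high in the DMSO ranking. In EPZ they held between 46.5% and 63.3% of the bases covered in DMSO.

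Among the 13 HSP70 genes 5 were marked in EPZ and in DMSO, and 8 had no peak in any list. Hspa8 encodes HSC70, the constitutive cytosolic form, and lies on chromosome 9 from 40801276 to 40805202. Its EPZ peak had a fold enrichment of 15.8, at percentile 98.6 of the EPZ list, and covered 3.02 kb of the gene. Its DMSO peak had 10.2, at percentile 98.5 of the DMSO list, and covered 3.73 kb. That was the highest EPZ value of any member. Hspa5 encodes BiP, the HSP70 of the ER, and was covered end to end over 4.44 kb in EPZ and in DMSO, at 6.69-fold and 7.47-fold in the 2 lists. It was the 1 member of 32 whose covered length did not shrink, and its EPZ peak ended 5488 and its DMSO peak 5677 bases past the start, both beyond the gene, and both peaks also touched Rabepk.

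Hspa9, the mitochondrial HSP70, had 2.29 kb under an EPZ peak of 5.00-fold against 10.1 kb in DMSO. Its highest DMSO peak, at 7.42, belonged mostly to the neighbour Etf1 and reached 0.804 kb into Hspa9, and the DMSO peak at its other end had 5.84-fold over 8.62 kb. Hspa4, a nucleotide exchange factor for HSP70, had 7.01 kb at 5.68-fold in EPZ against 19.1 kb at 7.40-fold in DMSO. Hspa14, which works at the ribosome with Dnajc2, had 1.35 kb at 4.57-fold in EPZ against 7.20 kb at 5.72-fold in DMSO. Thus all 5 DMSO-marked HSP70 genes kept an EPZ peak, over 18.8% to 100% of the DMSO-covered bases.

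The stress-inducible Hspa1a and Hspa1b and the testis-enriched Hspa1l stand side by side on chromosome 17, and none had a peak in any list. The nearest DMSO peaks lay 9.86, 3.67 and 2.79 kb from them. Hspa1a and Hspa1b are near-identical copies, with 296 of 300 bases the same in their promoter windows. Reads from such copies can be lost when they map to both places, and how they were treated is not given in the sources used here. The other HSP70 genes with no peak were Hspa2, Hspa4l, Hspa12a, Hspa12b and Hspa13, at 4.01 (Hspa4l) to 363 kb (Hspa12a) from the nearest DMSO peak.

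Hspd1 and Hspe1 encode the mitochondrial chaperonin HSP60 and its cap HSP10. They are transcribed away from each other from a shared promoter on chromosome 1, so 1 peak per list covered both. The EPZ peak ran from 55085995 to 55089014 at 5.79-fold, and the DMSO peak from 55083002 to 55089707 at 7.70-fold. In Hspd1 2.25 kb lay under the EPZ peak against 5.24 kb under the DMSO peak, and in Hspe1 0.867 kb against 1.56 kb. The EPZ peak was thus shorter toward both genes. Hsph1, an HSP110 that acts as nucleotide exchange factor for HSP70 and is heat-inducible, had no EPZ peak and a DMSO peak of 3.59-fold over 2.65 kb, at percentile 57.5 of its list.

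CCT is a double ring of 8 different subunits that folds actin and tubulin, and all 8 genes expressed in somatic cells were marked in EPZ and in DMSO. Cct5, on chromosome 15 from 31590800 to 31601846, had the highest DMSO value of all members. Its EPZ peak had a fold enrichment of 11.1 over 3.70 kb, against 11.3 over 7.71 kb for its DMSO peak, which also touched Atpsckmt. Cct4 had 6.68-fold over 2.42 kb in EPZ, against 9.63-fold as the highest DMSO value and 4.46 kb covered in DMSO. Cct7 kept the largest share of its DMSO-covered bases among the 8, with 6.39 kb at 5.39-fold in EPZ against 7.50 kb at 8.30-fold in DMSO, or 85.2%. These 3 subunits stood at or above percentile 95.8 of the DMSO list.

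Cct3 had 1.86 kb at 7.09-fold in EPZ against 3.14 kb at 7.55-fold in DMSO. Cct8 had 2.07 kb at 7.65-fold in EPZ against 3.28 kb at 6.56-fold in DMSO. Tcp1, the alpha subunit, had 1.96 kb at 5.17-fold in EPZ against 3.51 kb at 5.17-fold in DMSO, under peaks shared with Mrpl18 in both lists. These subunits kept 55.9% to 63.3% of their covered bases. Cct6a had 1.75 kb at 4.99-fold in EPZ against 5.68 kb at 5.47-fold in DMSO, a peak shared with Psph. Cct2 had the weakest EPZ peak of any member, with 0.772 kb at 2.58-fold, percentile 0.225 of the EPZ list, against 5.44 kb and 4.59-fold in DMSO. The ring subunits therefore differed in rank, although they act in equal numbers in the complex. From Cct2 to Cct5 they ran from percentile 0.225 to 96.2 of the EPZ list. In the DMSO list they ran only from percentile 74.7 to 99.3, where the lowest marked member, Dnajc30, stood at 34.6. The 2 CCT genes without a peak were Cct6b and Cct8l1, both known from testis. Cct6b lay only 0.017 kb from a DMSO peak and 0.336 kb from an EPZ peak outside its interval.

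Of the 4 class A J-domain genes Dnaja1 and Dnaja2, the main cytosolic partners of HSC70, were marked in both lists. Dnaja1 had 4.57 kb at 4.90-fold in EPZ against 9.03 kb at 6.24-fold in DMSO, and Dnaja2 had 3.99 kb at 4.29-fold against 9.21 kb at 6.08-fold. Dnaja3, the mitochondrial member, had no EPZ peak and 1.67 kb at 3.74-fold in DMSO, and Dnaja4 had no peak.

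Of the 13 class B genes 4 had an EPZ peak and 6 a DMSO peak. Dnajb6, which holds back the aggregation of polyglutamine proteins, had 12.4 kb at 5.84-fold in EPZ against 16.6 kb at up to 10.4-fold in DMSO. Dnajb1, the heat-inducible HSP40, had 1.90 kb at 3.19-fold in EPZ against 3.66 kb at 6.52-fold in DMSO. Its EPZ peak stood at percentile 29.3 of the EPZ list and its DMSO peak at percentile 89.8 of the DMSO list. Dnajb11, a BiP partner in the ER lumen, had 0.548 kb at 3.02-fold in EPZ against 3.94 kb at 4.72-fold in DMSO. Dnajb12, of the ER membrane, had 0.649 kb at 3.52-fold in EPZ against 13.0 kb at 4.05-fold in DMSO, and so held 5.01% of its DMSO-covered bases, the lowest share of the 32 members. Dnajb9, another BiP partner, had no EPZ peak and 1.5 kb at 3.07-fold in DMSO.

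Dnajb4 had a high DMSO value, 8.57, and no EPZ peak in its interval, although one lay 0.076 kb away. That DMSO peak is 8.54 kb wide, only 1.79 kb of it lies in Dnajb4, and it also touches the neighbour Fubp1. The other peak in Dnajb4 had 3.22-fold over 0.485 kb. The class B genes with no DMSO peak were Dnajb2, Dnajb3, Dnajb5, Dnajb7, Dnajb8, Dnajb13 and Dnajb14. Dnajb14, of the ER membrane, lay 0.259 kb from a DMSO peak and the others 4.61 (Dnajb7) to 129 kb (Dnajb8) away.

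The 28 class C genes share little beyond the J domain, and 8 had an EPZ peak against 14 with a DMSO peak. Dnajc15, a protein of the mitochondrial inner membrane that restrains respiratory complex I, had 4 EPZ peaks over 11.5 kb, the highest at 5.06-fold, against 6 DMSO peaks over 34.2 kb, the highest at 7.48-fold. It had the longest covered length of any member in DMSO. Dnajc3, an ER lumen protein that also inhibits the kinase PERK, had 2 EPZ peaks over 11.0 kb at up to 4.55-fold, against 1 DMSO peak over 17.2 kb at 8.08-fold. Dnajc7, a co-chaperone of HSP70 and HSP90, had 3 EPZ peaks over 9.96 kb at up to 4.27-fold, against 3 DMSO peaks over 23.1 kb at up to 7.01-fold. Dnajc5, the cysteine string protein of secretory vesicles, had 3 EPZ peaks over 9.59 kb inside 1 DMSO peak over 27.0 kb. These 4 were the only members with more than 1 EPZ peak, and each lay in a gene of 34.0 kb (Dnajc5) to 48.7 kb (Dnajc15).

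Dnajc9, a histone H3 and H4 chaperone, had 2.27 kb at 4.77-fold in EPZ against 4.27 kb at 6.06-fold in DMSO, where the whole gene was covered. Dnajc8, found with the splicing machinery, had 2.87 kb at 4.39-fold in EPZ against 6.56 kb at 6.86-fold in DMSO. Dnajc2, the ribosome-bound partner of Hspa14, had 1.19 kb at 3.64-fold in EPZ against 3.06 kb at 4.41-fold in DMSO, a DMSO peak shared with the proteasome gene Psmc2. Dnajc11, of the mitochondrial membrane, had 1.41 kb at 3.06-fold in EPZ against 10.7 kb at 4.53-fold in DMSO. The 6 class C genes with a DMSO peak alone were Dnajc14, of the ER membrane, at 4.10-fold, Dnajc1, of the ER, at 3.88, Dnajc21, of ribosome biogenesis, at 3.57, Dnajc13, of endosomes, at 3.40, Dnajc17 at 3.17 and the mitochondrial Dnajc30 at 3.04. Dnajc1 and Dnajc13 had 13.7 and 11.7 kb under DMSO peaks, where the median was 6.12 kb in the 32 members with an EPZ peak and 2.46 kb in the 12 with a DMSO peak alone. These long genes thus lay above both medians. The class C genes with no DMSO peak were Dnajc4, Dnajc5b, Dnajc5g, Dnajc6, Dnajc10, Dnajc12, Dnajc16, Dnajc18, Dnajc19, Dnajc22, Dnajc24, Dnajc25, Dnajc27 and Dnajc28. They include Dnajc10, an ER reductase, at 285 kb from the nearest DMSO peak, the neuronal auxilin Dnajc6, and Dnajc19, a part of the mitochondrial protein import motor.

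The small heat shock prefix gathered 10 genes, of which 0 had an EPZ peak and 2 a DMSO peak. Hspb6 had a DMSO peak of 0.635 kb at 4.00-fold. Hspbp1 had 4 DMSO peaks over 7.50 kb at up to 3.61-fold, and encodes an HSP70 nucleotide exchange factor that only shares the prefix, as do Hspb11, an intraflagellar transport protein, and Hspbap1. Hspb1, the widely expressed HSP27 homologue, Hspb2, Hspb3, Hspb7, Hspb8, Hspb9, Hspb11 and Hspbap1 had no peak. Several of them are known from muscle and heart.

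Grouped by where the proteins act, 4 of 7 members placed in the ER lumen had an EPZ peak. Of these, 6 of 7 had a DMSO peak, with Dnajc10 the exception. The group does not hold every ER member. Left out, among others, were Hspa13 and the ER membrane gene Dnajb14, with no peak. The ER membrane gene Dnajb12, with EPZ and DMSO peaks, was left out too. Dnajb9, Dnajc1 and the ER membrane gene Dnajc14 had a DMSO peak only, and not all of them were counted in the group. Of 8 members placed in the mitochondrion 5 had an EPZ peak and 7 a DMSO peak, with Dnajc19 the exception among the 8. This group need not hold every mitochondrial member either. Of 11 members known chiefly from testis, 0 had a peak in either list. Over all genes the shares were 15.9% in EPZ and 34.5% in DMSO. These groups were drawn up with the values known, so their counts describe them and show no difference from other genes. The 40 members with no DMSO peak lay a median of 18.6 kb from the nearest one, 5 within 2 kb and 27 more than 10 kb away, so most of them had no called peak close by.

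The bases covered in EPZ were fewer than in DMSO in 31 of the 32 members marked in both. Their median was 2.28 kb in EPZ against 6.12 kb in DMSO. Over all genes marked in both these medians were 2.475 kb and 8.45 kb, so members had less covered length in DMSO and a similar length in EPZ. Relative to DMSO, a median of 47.3% of the covered bases of a member lay under EPZ peaks (95% order-statistic interval 36.8 to 55.6), where the median of 3486 genes marked in both was 34.4%. That order turned round with peaks of −log10 q of at least 5 (members 50.3%, all genes 52.8%) and with peaks on the promoter window (52.6% and 55.3%), so it depends on which peaks are counted. The share was above 50% in 14 members and below 25% in 6. Its quartiles were 35.0% and 56.8% in the members and 18.4% and 55.4% over all genes marked in both. Over the 32 members together, 125 kb lay under EPZ peaks against 290 kb under DMSO peaks. The share was higher where DMSO fold enrichment was higher (Spearman rho 0.62 over 32 members and 0.71 over all 3486 genes), a description across genes that come from the same libraries. These 32 members had a median gene length of 17.0 kb (interval 11.0 to 24.6), which is not apart from the 24.0 kb of all genes marked in both. Their share was lower in longer genes (rho -0.42), a relation not computed over all genes. Only bases inside the gene were counted, so peaks that run past a short gene, as at Hspa5, were cut.

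**Figure D2:**
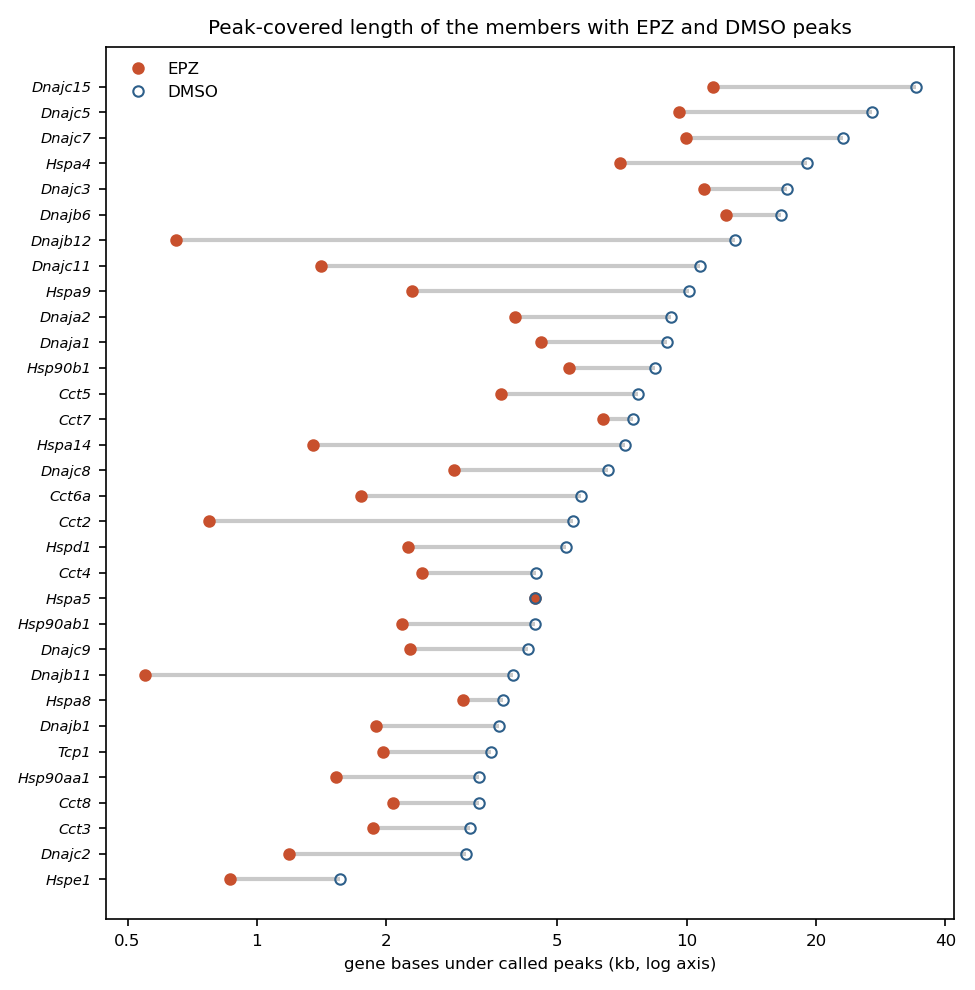
Gene bases under called peaks (x axis, kb, log scale) in EPZ and DMSO for the 32 members marked in both, ordered by DMSO length. All members but Hspa5 had fewer covered bases in EPZ, from 0.548 kb (Dnajb11) to 12.4 kb (Dnajb6), and Dnajb12, Dnajc11, Cct2 and Dnajb11 show the widest gaps.

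In the 24 of 32 EPZ-marked members with a known start, an EPZ peak sat near the start of the gene. Dnajc3, Dnajc7 and Dnajc15 had further EPZ peaks downstream, which the edges given below leave out. A RefSeq start was known for 35 DMSO-marked members, and in all 35 a DMSO peak reached the first 1 kb, as did an EPZ peak in all 24 that had one. Among all protein-coding genes with a known start these shares were 81.8% of 2831 EPZ-marked and 89.0% of 6149 DMSO-marked genes. The EPZ peak in this first 1 kb ended a median of 2.33 kb past the start (interquartile range 1.96 to 5.38, 24 members), and the DMSO peak 5.24 kb past it (3.21 to 8.78, 35 members). In all 24 members the EPZ peak ended nearer the start than the DMSO peak, by a median of 3.22 kb, and over 2316 genes this was so in 99.7%, by a median of 3.66 kb. On the upstream side the EPZ peak began a median of 0.361 kb further downstream than the DMSO peak (0.424 kb over all genes). The difference in covered length thus arose mostly at the downstream end, in members as in other genes. Hspe1, Dnajb4 and Tcp1, which share their start region with a neighbour, had DMSO peaks that began at -5146, -7106 and -3316 bases from the start.

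**Figure D3:**
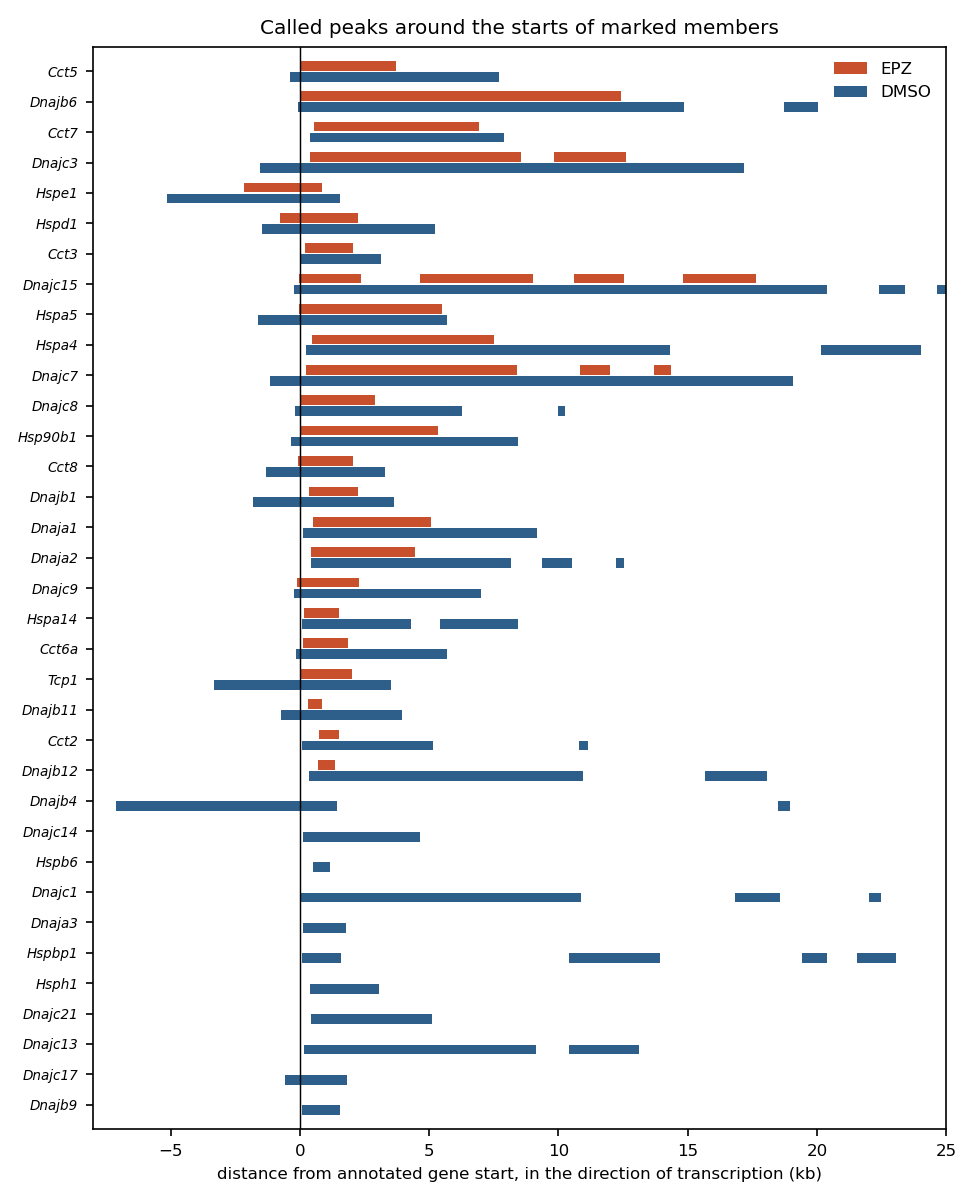
Called peaks of the 35 DMSO-marked members with a known start, drawn by distance from the start in the direction of transcription (x axis, kb), with EPZ above DMSO for each gene. The upper 24 genes have both and the lower 11 a DMSO peak only, each block ordered by DMSO fold enrichment. The axis leaves out the far ends of the longest genes, and the EPZ peak in the first 1 kb of each gene ends before the DMSO peak there, at a median of 2.33 kb. Dnajc3, Dnajc7 and Dnajc15 have further EPZ peaks downstream.

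Members with and without an EPZ peak differed in DMSO fold enrichment. The highest DMSO value in the gene had a median of 6.90 in the 32 members with an EPZ peak (range 4.05 to 11.3) and of 3.60 in the 12 without (3.04 to 8.57), and apart from Dnajb4 and Dnajc14 none of the 12 reached the lowest of the 32. Over all DMSO-marked members the median was 6.16 (95% order-statistic interval 4.72 to 7.01), and over all DMSO-marked genes 4.47. Of members with a DMSO value from 3 to below 4, 0 of 10 had an EPZ peak, as had 4.52% of all genes in that range. From 4 to below 5 it was 5 of 6 members, where all genes had 44.9%, and from 5 to below 8 it was 21 of 21, where all genes had 81.2% to 91.5%. At 8 or more it was 6 of 7 members, where all genes had 94.4%. The share was thus lowest below 4 in the members and in all genes, and above that the members' counts per range are too small to order. Those closest to the border were Dnajb12, at 4.05 with an EPZ peak, and Dnajc14, at 4.10 without one.

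**Figure D4:**
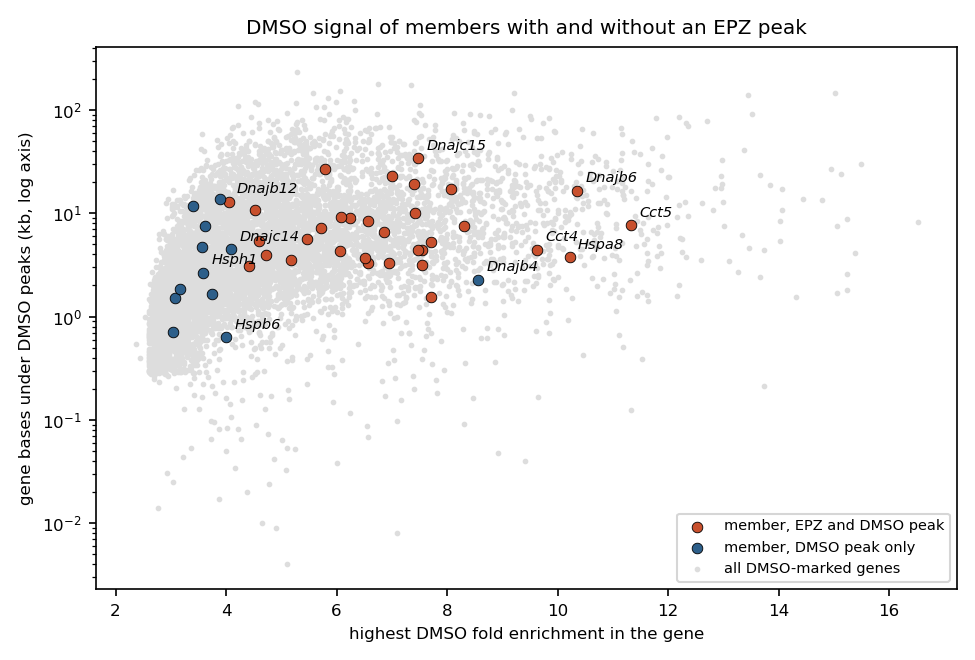
Highest DMSO fold enrichment (x axis) and gene bases under DMSO peaks (y axis, kb, log scale) for members with an EPZ and a DMSO peak, members with a DMSO peak only, and all 7563 DMSO-marked genes in grey. Members with an EPZ peak lie at 4.05 or higher, and those without lie between 3.04 and 4.10 apart from Dnajb4 at 8.57.

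The promoter windows of marked members were rich in CpG. The ratio of observed to expected CpG had a median of 0.93 in 24 members with both peaks, of 0.96 in 11 with a DMSO peak only and of 0.63 in 34 with no DMSO peak. Over all protein-coding genes the medians of these classes were 0.83, 0.80 and 0.35. The motif TATAAA, searched on both strands, was in the windows of 0 of 24, 0 of 11 and 3 of 34 members, and in 6.75%, 6.12% and 17.1% of all genes of these classes. CCAAT was in 40.6% of member windows and in 39.2% of all windows.

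**Figure D5:**
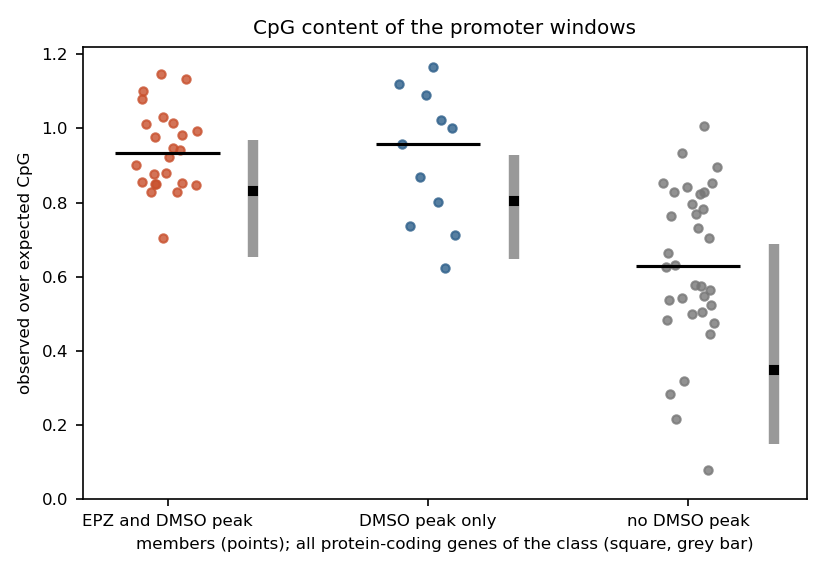
Observed over expected CpG (y axis) in the 300-base promoter windows of members by class, with the median of each class as a line, beside the median (square) and interquartile range (grey bar) of all protein-coding genes of that class. The members with peaks sit higher (medians 0.93 and 0.96) than those without (0.63).

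The partners and regulators of the chaperones, a list of 41 co-chaperones, prefoldin subunits and heat shock factors, were marked in 20 cases in EPZ, 0 in SGC and 34 in DMSO. Over all genes the shares were 15.9%, 0.142% and 34.5%. Of the 34 DMSO-marked genes 20 had an EPZ peak (58.8%, interval 40.7 to 75.4), an interval that holds the 46.1% of all DMSO-marked genes. Cdc37, which delivers kinases to HSP90, had 4.94 kb at 4.65-fold in EPZ against 6.70 kb at 9.24-fold in DMSO. Ptges3, the HSP90 co-chaperone p23, had 9.77 kb at 6.34-fold in EPZ against 11.8 kb at 8.82-fold in DMSO. Stip1, which bridges HSP70 and HSP90, had 2.63 kb at 4.63-fold in EPZ against 5.38 kb at 7.94-fold in DMSO. Bag6 and Tomm34 had EPZ values of 4.57 and 4.33 in their list and DMSO values of 7.46 and 6.96. These 5 were named for their DMSO values, a range in which 91.4% to 94.4% of all genes had an EPZ peak. Hsf1, named after its values were seen, had 1.62 kb at 2.96-fold in EPZ against 13.2 kb at 5.06-fold in DMSO, with its highest peak in each list shared with Bop1. The members of this list with no DMSO peak were Bag2, Clpb, Hsf2, Pdcl, Pfdn5, Sil1 and Ttc4, and Pfdn5 lay 0.475 kb from a DMSO peak.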

How the data were processed

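H3K79me2 ChIP-seq of CD8 T cells comprised 12 libraries, and the deposited files were 3 lists of broad peaks, each taken as pooled over its treatment. Per the submitters' processing notes, the tools and builds were BWA 0.7.17-r1188, Picard, MACS2 2.2.7.1, mm10 (GRCm38) and sacCer3. Not given in the sources used here is how replicates, inputs and yeast reads entered a list, or which thresholds applied. Per the layout of the deposited files, fold enrichment is the authors' ratio over background and the deposited −log10 q is the authors' significance value, each averaged over a peak. The −log10 p column was not used. Weak peaks go uncalled at low depth, which is unknown here.

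Gene positions and promoter windows came from RefSeq tables on GRCm38.p6. Promoter windows, with strand and start, were given for 69 of the 84 members, and of several starts the most upstream was used. Overlap of at least 1 base marked a gene, computed with Python 3.11.15, numpy 2.4.6, pandas 2.3.3 and scipy 1.17.1, and the overlap code was tested on simulated intervals. Intervals of shares are exact (Clopper-Pearson). No test across samples was possible with 1 list per treatment. Members, lists, motifs and groups were chosen with earlier results of these data known. Named genes were all members of HSP90, HSP60, HSP10, HSP110 and CCT, in the other families the highest, lowest, borderline and unmarked members, and the rest so that every member is accounted for. From the co-chaperones the 5 of highest DMSO value and the unmarked ones were named. The 8 alternatives tried are given in the closing section.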

Additional observations from a re-analysis of the deposited data

How the results depend on the processing

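Across 9 results and 8 alternatives, 65 values stayed within 1.5 times the reported count or within the interval of the reported share or median, and 7 moved. The values that stayed include the SGC counts of 0, which most alternatives could not raise. Requiring a peak on the promoter window, which leaves 69 members and 31 co-chaperones with a window, lowered the marked members to 14 in EPZ and 23 in DMSO (4.33% and 17.5% of all genes with a window) and the co-chaperones to 0 in EPZ and 14 in DMSO. Requiring a −log10 q of at least 5 lowered the co-chaperones to 6 in EPZ and 18 in DMSO (7.68% and 17.3% of all genes). Requiring peaks of at least 1000 bases lowered the co-chaperones to 13 of 41 in EPZ, where 13.1% of all genes were marked. The −log10 q alternative kept 26 of 32 members in EPZ, losing Cct2, Dnajb1, Dnajb11, Dnajb12, Dnajc2 and Dnajc11, and 31 of 44 in DMSO. Counting only peaks that touch 1 protein-coding gene left 28 of 84 members in EPZ, losing Hspa5, Hspd1, Hspe1 and Tcp1 (14% of all genes). In DMSO it lost 13 members and left 31 of 84, nearer to the 28% of all genes. Part of the DMSO count thus came from peaks shared with neighbours. The highest DMSO peak of 16 members also covered another protein-coding gene. Widening genes by 2000 bases added Cct6b, Dnajb4, Dnajb14 and Hspbp1 in EPZ. Over all alternatives EPZ peaks remained on 60.9% to 83.9% of the DMSO-marked members, beside 24.7% to 48.5% of all DMSO-marked genes. The median covered share of members ran from 42.6% to 52.6%. Over all genes it ran from 33.8% to 55.3%, above the members at −log10 q of at least 5 and on the promoter window. The median DMSO fold enrichment ran from 5.80 to 7.01 in marked members and from 4.19 to 5.99 over all marked genes. No paired analysis was possible because each treatment has 1 pooled list, so leaving out a replicate was not possible either. Unknown read depth limits what the absence of a weak peak shows.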
